A study of Mus musculus with 2 samples.

Results

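CD48-high CD150-low progenitors make up much of the LSK fraction of mouse bone marrow, marrow cells with Sca-1 and c-Kit but without lineage markers, which hold stem cells and the earliest progenitors. In this gate, the library with barcode suffix 2 had higher MHC class II, Ctsg and Mt1 transcripts than the library with suffix 1, and lower Hlf, Myl10 and Slc16a11 transcripts. Dntt and Flt3 were also lower, by less than 2-fold, and the Dntt difference was smaller with tag limits common to both libraries. Ribosomal protein and MYC network genes stood at nearly the same level in both libraries, as did cell cycle genes with limits set in each library. The gate held 1833 cells of 4688 in the matrix, 642 with suffix 1 and 1191 with suffix 2.

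LSK cells were sorted from female C57BL/6JRj mice of 2 ages, young mice of 3-5 months and old mice of 22-28 months, with 4 mice pooled per age. CITE-seq was run on them, which counts the transcripts of a cell together with the DNA tags of antibodies bound to its surface, both as unique molecular identifiers (UMIs). Each age was 1 library, and nothing in the labels or in the study's text pairs a barcode suffix with an age. The comparison below is therefore of one library with another, with no replicate, no p-value and no statement on age, and mouse, age and library handling cannot be told apart in it. All intervals are 95% intervals that cover counting error only.

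Members were chosen on surface tags. A cell was kept when its mitochondrial share was below 10% of UMIs and more than 1500 genes were detected in it (4068 cells, of which 3986 had tags). Within each suffix, a member had a CD150 tag count under the 75th percentile and a CD48 tag count above the 50th. The limits this gave were far apart. In suffix 1, CD48 had to exceed 462 tags and CD150 had to be under 40. In suffix 2, CD48 had to exceed 135 tags and CD150 had to be under 407. The members just inside the CD48 limit had 464 and 136 tags in suffix 1 and 2, and the cells just outside had 462 and 135. For CD150, the members just inside had 39 and 406 tags and the cells just outside had 40 and 407. Percentiles taken over both suffixes together gave 1 limit for each tag, 161 for CD150 and 271 for CD48, and 946 and 922 cells, and named genes below whose ratio, with 10 CPM added, moved by over 1.5-fold with this choice are given with both values.

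CD48 and CD150 are members of the SLAM family of receptors, which are read together to divide LSK cells. Long-term stem cells carry CD150 and lack CD48, and CD48 appears as cells become multipotent progenitors. The CD48-positive CD150-negative progenitors are known to be mixed: some lean to granulocytes and macrophages, and others, marked by the receptor Flt3, lean to lymphoid fates. MHC class II molecules present peptides to helper T cells and are best known from B cells, dendritic cells and macrophages, although stem and progenitor cells also make them.

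Between this gate and the CD48-low CD150-high gate, transcripts of the gated markers followed the tags. Between the libraries, the median CD48 tag count of members ran the other way from Cd48. It was 834.5 (802 to 876) in suffix 1 and 542 (516 to 571) in suffix 2. The median CD150 tag count was 4 (4 to 5) and 6 (6 to 6). Cd48 was at 119 CPM (UMIs of the gene per 1000000 UMIs of the library's members) in suffix 1 and 165 in suffix 2, against 5.31 and 1.90 in the CD48-low CD150-high gate of the same libraries. Slamf1, which encodes CD150, was at 0.29 and 1.90 CPM against 14.01 and 62.5. Both transcripts are tied to the tags that chose the cells, so they only check the labels. Kit, a gene of the sort, was at 114 and 124 CPM, and Ly6a, which encodes Sca-1 and was sorted on as well, at 180 and 279. Cd34, which marks progenitors rather than long-term stem cells, was at 601 and 525 CPM in the gate and at 225 and 48.04 in the CD48-low CD150-high gate.

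Depth was alike in both libraries. The members of suffix 1 summed to 13769383 UMIs and those of suffix 2 to 24767727, with medians of 19226.5 and 18258 UMIs per cell, 4649.5 and 4525 detected genes, and 5.65% and 5.78% mitochondrial UMIs. The libraries shared 0 cell barcodes. Tags that the gate did not use differed somewhat: the median CLCA3A1 tag count was 7 (interval 6 to 8) in suffix 1 and 11 (10 to 12) in suffix 2, and the median of tags that mapped to no antibody was 59 (57 to 63) and 28 (26 to 29). Marker transcripts of T and NK cells (6.03 and 4.00 CPM summed over 11 genes), maturing granulocytes (18.1 and 16.3 over 10) and macrophages (19.3 and 9.61 over 8) were near 0 in both, and Cd3e and Gzma were at 0 in each.

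Promoter sequences of 3 of the MHC class II genes come first: H2-Aa and H2-Eb1, which were over 2-fold higher in suffix 2, and H2-DMb1, which was higher by less. Their promoters share the X and Y boxes, elements known to be bound by the RFX complex and by NF-Y, on which the coactivator CIITA assembles. Each is the 250 bases before the gene's RefSeq start on its own strand, build GRCm38.p6, on chromosome 17. Capitals mark the letters CTNGNAAC (X box) and, downstream, ATTGG (Y box), patterns written down after these sequences had been read.
H2-DMb1 (chr17:34152941-34153190, plus strand): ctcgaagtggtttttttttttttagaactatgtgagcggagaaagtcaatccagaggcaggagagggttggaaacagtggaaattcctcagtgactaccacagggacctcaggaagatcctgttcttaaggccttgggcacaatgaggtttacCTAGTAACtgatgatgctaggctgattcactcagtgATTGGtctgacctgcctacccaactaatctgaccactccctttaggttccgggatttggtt
H2-Aa (chr17:34287824-34288073, minus strand): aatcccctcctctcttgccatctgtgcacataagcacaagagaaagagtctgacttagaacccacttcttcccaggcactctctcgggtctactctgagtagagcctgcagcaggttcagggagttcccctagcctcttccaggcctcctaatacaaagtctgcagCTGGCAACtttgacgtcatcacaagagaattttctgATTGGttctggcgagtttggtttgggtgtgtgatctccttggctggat
H2-Eb1 (chr17:34305617-34305866, plus strand): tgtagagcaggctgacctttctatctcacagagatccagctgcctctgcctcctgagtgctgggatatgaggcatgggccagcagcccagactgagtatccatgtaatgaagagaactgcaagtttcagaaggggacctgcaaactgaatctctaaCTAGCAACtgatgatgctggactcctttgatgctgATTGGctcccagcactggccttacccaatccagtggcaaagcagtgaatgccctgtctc
In the GENCODE annotation, H2-DMb1 starts earlier, at chr17:34153072. By that annotation part of its window, with both the marked X and the marked Y letters, lies inside the gene and not before it. The X letters start 97, 84 and 94 bases before the RefSeq start in H2-DMb1, H2-Aa and H2-Eb1, and 28, 28 and 27 bases lie between X and Y. Of 32851 promoter windows of this length in the RefSeq table, 10.9% held the X letters on the gene's strand, 33.8% the Y letters, and 77 windows (0.234%) held X followed by Y with 15 to 35 bases between. H2-Ab1 was not among the 32851 windows, and the promoters of Cd74 and H2-Ob are not shown. The 3 windows thus do not stand for all MHC class II genes of the list.

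Of 31053 genes, 8281 had a mean of at least 10 CPM over both libraries and were compared, and 22772 were not. Levels were summed over the members of a library, and the log2 ratio of suffix 2 over suffix 1 was taken after 10 CPM had been added to each. Its median over the compared genes was -0.04, with 5th and 95th percentiles of -0.25 and 0.18. At least 2-fold higher in suffix 2 were 21 genes (0.254%), and at least 2-fold lower were 8 genes (0.0966%), together 29 genes (0.35%). At 1.5-fold these counts were 63 (0.761%) and 37 (0.447%), together 100 genes (1.21%). Most genes thus lay within 1.5-fold between the libraries.

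**Figure D1:**
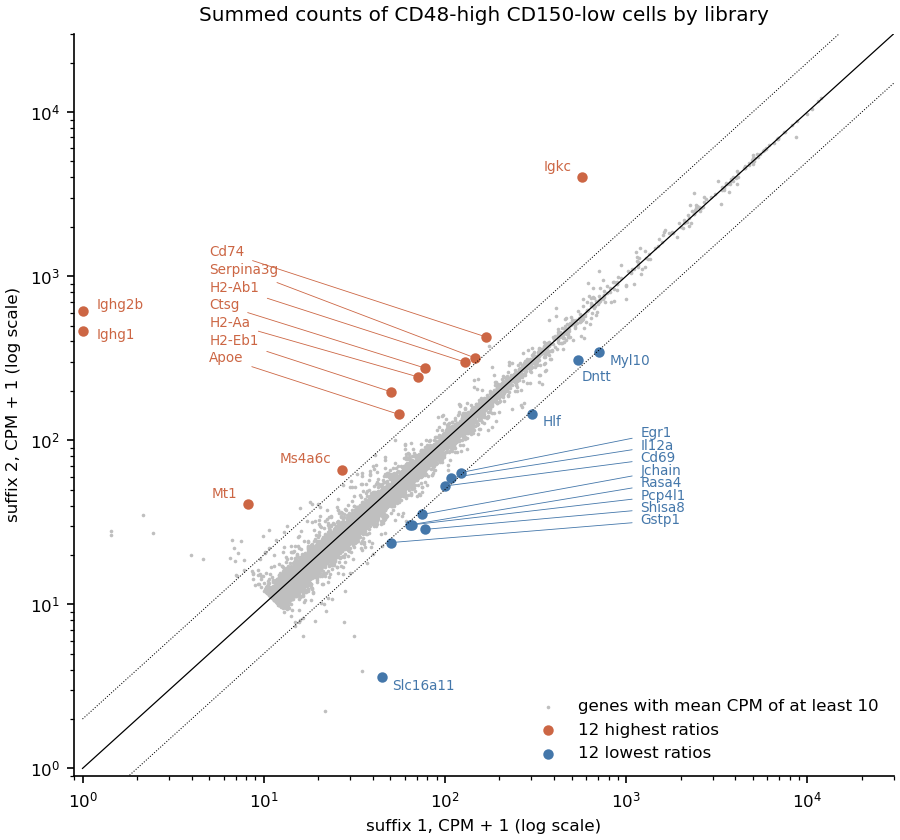
Summed level of each compared gene in CD48-high CD150-low cells, suffix 1 on the horizontal and suffix 2 on the vertical axis, as CPM with 1 added on log scales. The solid line marks equal levels and the dotted lines a 2-fold difference, and the 12 genes with the highest ratios (orange) and the 12 with the lowest (blue) among genes with a mean of at least 20 CPM are named.

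Of the genes at least 2-fold higher in suffix 2, 4 were MHC class II genes. They encode the alpha and beta chains of the peptide receptor (H2-Aa, H2-Ab1, H2-Eb1) and its invariant chain (Cd74). H2-Eb1 was at 49.5 CPM in suffix 1 and 196 CPM in suffix 2, a ratio of 3.96 (3.65 to 4.30). H2-Aa went from 69.6 to 243 CPM, a ratio of 3.48 (3.25 to 3.73). All 3 chain genes and Cd74 passed the 2-fold limit: H2-Ab1 was at 128 and 298 CPM (ratio 2.33, 2.21 to 2.46) and Cd74 at 168 and 425 CPM (ratio 2.53, 2.41 to 2.64). On GRCm38, H2-Aa lies at chr17:34282744-34287823, H2-Ab1 at chr17:34257689-34269419, H2-Eb1 at chr17:34305867-34316674, and Cd74 at chr18:60803848-60812652.

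Other members of the list moved less or the other way. Of 10 listed genes 8 were compared, 4 were at least 2-fold higher and 0 were 2-fold lower, with a median log2 ratio of 0.91 against -0.04 over all genes. H2-DMb1, a chain of the peptide exchange molecule DM, was at 45.5 CPM in suffix 1 and 78.2 in suffix 2, and its partner chain H2-DMa was at 226 and 239 CPM. H2-Ob, a chain of the DM inhibitor DO, ran in the opposite direction, at 60.1 and 31.3 CPM, and H2-Oa was at 24.1 and 25.4 CPM. Ciita was too low to compare, with 59 UMIs in suffix 1 (4.28 CPM) and 226 in suffix 2 (9.12 CPM). H2-DMb1, H2-DMa, H2-Ob, H2-Oa and Ciita were named after their values had been seen. MHC class I genes, which every nucleated cell uses, differed little: 0 of 16 passed 1.5-fold, with a median log2 ratio of 0.10.

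The difference in MHC class II was also seen in the UMIs of the median cell. Summed over H2-Aa, H2-Ab1, H2-Eb1 and Cd74, and with each cell thinned to 9000 UMIs, the median member had 1 UMI in suffix 1 and 4 UMIs in suffix 2, and the 90th percentiles were 6 and 25. Of the thinned cells, 67.6% in suffix 1 and 83.5% in suffix 2 had at least 1 UMI of the 4 genes, and 13.7% and 46.5% had 5 or more. Before thinning the medians were 2 (2 to 3) and 8 (7 to 9). None of the 4 tag gates should lack these genes, so the share that free RNA gives was not measured and its part in these low counts was not tested. The share of thinned cells with a H2-Aa UMI in suffix 2 was 53.9% (51.0 to 56.8) here. It was 67.3% (63.4 to 71.1) in the CD48-low CD150-low gate and 42.1% (37.9 to 46.4) in the CD48-low CD150-high gate. The gates hold unlike cells, so nothing about free RNA is read from these shares. The median was higher in suffix 2 in each class of members examined. The class with Ctsg but no Dntt was small, with 21 thinned cells in suffix 1 and 167 in suffix 2. In it 61.9% (38.4 to 81.9) and 73.1% (65.7 to 79.6) had a UMI of the 4 genes, with overlapping intervals. Cells with a Dntt but no Ctsg UMI had medians of 1 and 4 UMIs, those with Ctsg but no Dntt 1 and 3, those with both or neither of these, with Flt3 and without it 1 and 4 each, cells with a UMI of a cycling gene (Mki67, Top2a, Ube2c or Birc5) 1 and 3, and cells without one 1 and 5.

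**Figure D2:**
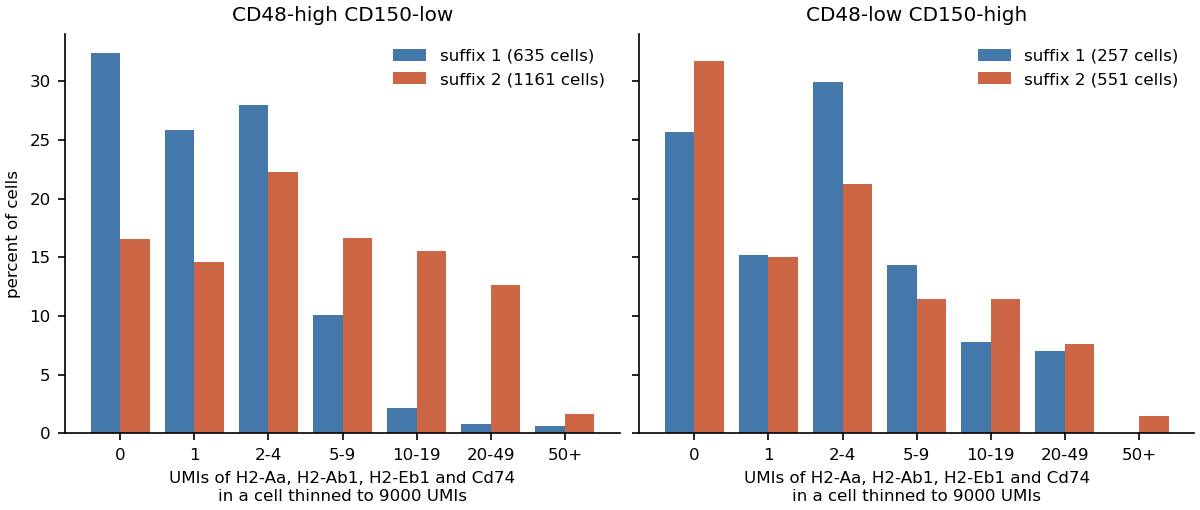
Percent of cells by their summed UMIs of H2-Aa, H2-Ab1, H2-Eb1 and Cd74 after each cell was thinned to 9000 UMIs, for suffix 1 (blue) and suffix 2 (orange), in CD48-high CD150-low cells on the left and CD48-low CD150-high cells on the right. On the left, 32.4% of suffix 1 and 16.5% of suffix 2 cells had 0 UMIs and suffix 2 filled the classes from 5 UMIs upward, while on the right 25.7% and 31.8% had 0 UMIs.

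A few cells weighed on the sums in both libraries. Members with over 100 UMIs of the 4 genes numbered 4 in suffix 1, which held 44.1% of that library's UMIs of these genes, and 28 in suffix 2, which held 30.3%. Leaving out those rich in immunoglobulin, these cells (3 and 23) were led, besides the 4 genes, by Naaa, Plbd1, Id2, Ckb and Xcr1, the last of which encodes a chemokine receptor known from cross-presenting dendritic cells, and Cd74 stood at 6038 CPM in them against 194 CPM in the other members. Without the cells over 100 UMIs, a limit set on the same genes that removed a larger share of these UMIs from suffix 1, the log2 ratios were 1.89 for H2-Aa, 2.14 for H2-Eb1, 1.22 for H2-Ab1 and 1.82 for Cd74. In members without a cycling UMI (248 and 458 cells) the log2 ratios of Cd74, H2-Aa, H2-Ab1 and H2-Eb1 were 0.12, 0.43, 0.25 and 0.60, and with the cells over 100 UMIs left out as well they were 1.80, 1.90, 1.34 and 2.04. With stricter tags (200 and 528 cells), these log2 ratios were -0.02, 0.79, 0.52 and 0.90, and 1.72, 1.65, 1.05 and 2.04 with those cells left out. Since that limit is set on the genes compared, the values with it are a description only.

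Myeloid transcripts also held members past 2-fold. Ctsg, which encodes the granule protease cathepsin G, was at 76.8 CPM in suffix 1 and 274 CPM in suffix 2, a ratio of 3.57 (3.34 to 3.81). Mpo, the myeloperoxidase of the same granules, was at 174 and 373 CPM, a ratio of 2.14 (2.05 to 2.24). These proteases and peroxidases did not move as one block: Prtn3 was at 575 and 720 CPM, and Elane, neutrophil elastase, was lower in suffix 2, at 54.1 and 34.6 CPM. Over the list, 2 of 19 compared genes were at least 2-fold higher, 0 were lower, and the median log2 ratio was 0.23. Spi1, which encodes the myeloid regulator PU.1, was at 153 and 164 CPM, and Cebpa at 45.8 and 34.2 CPM. Prtn3, Elane and Cebpa were named after their values had been seen.

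More cells carried Ctsg in suffix 2. After thinning, 10.7% (8.41 to 13.4) of members in suffix 1 and 28.7% (26.1 to 31.4) in suffix 2 had a Ctsg UMI, and the shares with an Mpo UMI were 37.6% (33.9 to 41.5) and 47.5% (44.6 to 50.4). Unthinned, they were 16.2% and 33.6% for Ctsg and 48.4% and 56.3% for Mpo. In the CD48-low CD150-high gate, which should lack both, the thinned Ctsg shares were 0.389% and 1.45%, with median depths of 13841 and 13857 UMIs before thinning. In members with a Flt3 UMI, Ctsg was at 55.6 and 296 CPM. In those without one (49 and 287 cells), it was at 389 and 189 CPM, a log2 ratio of -1.004, and Mpo was at 724 and 312 CPM. These levels rested on a few cells: in suffix 1, 6 of the 49 cells had a Ctsg UMI, and the highest 3 held 97.1% of its 341 Ctsg UMIs and 88.5% of its 635 Mpo UMIs. Unthinned shares of cells with a UMI in this class were close, at 12.2% and 13.2% for Ctsg and 40.8% and 41.1% for Mpo, against 16.5% and 40.0% for Ctsg in members with a Flt3 UMI. With common tag limits, Ctsg was at 57.2 and 331 CPM and Mpo at 136 and 449 CPM, so these differences were larger there. The thinned shares with common limits were 7.83% and 35.9% for Ctsg and 29.6% and 57.7% for Mpo.

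Early lymphoid genes leaned the other way. Dntt, which encodes the terminal transferase that adds nucleotides to rearranging antigen receptor genes, was at 541 CPM in suffix 1 and 307 CPM in suffix 2, a ratio of 0.57 (0.55 to 0.59). Flt3, the receptor that marks lymphoid-primed progenitors, was at 273 and 168 CPM (ratio 0.62, 0.59 to 0.64). Notch1, the receptor that starts T cell fate, was at 57.6 and 35.1 CPM. Of 16 compared genes on the list, 0 passed 2-fold and 2, Dntt and Flt3, were at least 1.5-fold lower, with a median log2 ratio of -0.32. Not all members were lower, since Gata3, a regulator of T cell fate, was at 14.7 and 25.1 CPM. After thinning, a Dntt UMI was found in 56.1% (52.1 to 60.0) of members of suffix 1 and 35.6% (32.8 to 38.4) of suffix 2, and a Flt3 UMI in 83.8% (80.7 to 86.6) and 61.1% (58.2 to 63.9). Unthinned shares were 66.4% and 43.2% for Dntt and 92.4% and 75.9% for Flt3, and in the CD48-low CD150-high gate the thinned Dntt shares were 1.56% and 2.36%.

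The Dntt difference moved with the tag limits. With limits common to both suffixes, Dntt was at 415 and 364 CPM, a log2 ratio of -0.19 in place of -0.80, and 44.7% and 41.4% of thinned members had a Dntt UMI. Flt3 was at 240 and 185 CPM there, a log2 ratio of -0.36 in place of -0.67. Within members that had a Flt3 UMI, Dntt was at 575 and 385 CPM.

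**Figure D3:**
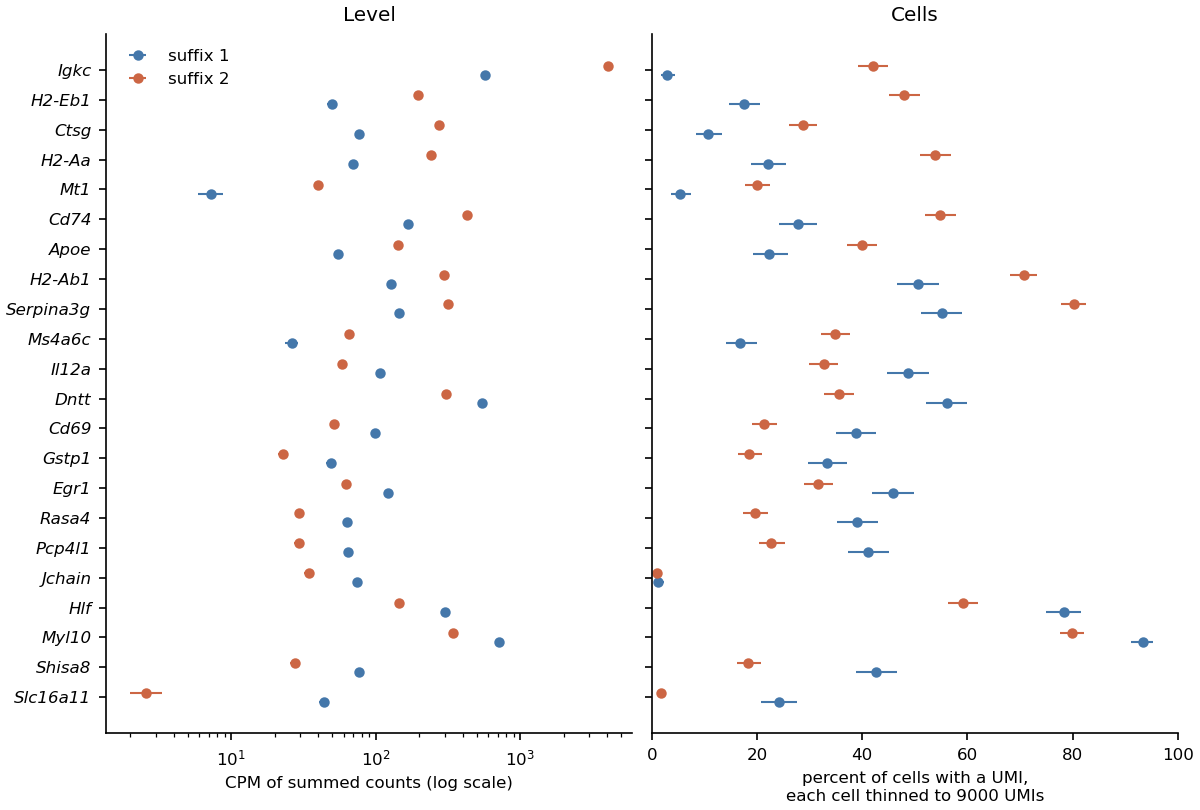
Left, summed level in CPM on a log scale of 22 of the 24 leading genes in suffix 1 (blue) and suffix 2 (orange), with 95% Poisson intervals that are often smaller than the points. Right, percent of cells with at least 1 UMI after thinning to 9000 UMIs, with exact binomial intervals, where H2-Aa is at 22.0% and 53.9% and Slc16a11 at 24.1% and 1.81%; Ighg1 and Ighg2b, at 0 in suffix 1, are left out.

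Immunoglobulin transcripts headed the list of higher genes, and they came from a handful of cells. Ighg2b and Ighg1, the constant regions of class-switched antibodies, were at 0 in suffix 1 and at 611 and 462 CPM in suffix 2, at least 2806-fold and 2123-fold higher against a floor of 3 UMIs in suffix 1. Igkc, the kappa light chain constant region, was at 573 and 4016 CPM. In suffix 2, the 7 members with over 1% immunoglobulin UMIs held most of them, and suffix 1 had 1 such cell, which alone held 7853 of its 7884 Igkc UMIs. Outside these cells Igkc was at 2.25 and 64.6 CPM, in 4.84% and 67.8% of members, and in the CD48-low CD150-high gate, whose cells should lack it, it was in 1.09% and 61.3% of cells. Over the 4 gates the share in suffix 2 outside immunoglobulin-rich cells ran from 61.3% to 74.0%, so the share in these progenitors is not read as expression, and the part of free RNA was not tested. Pax5, the factor that commits B cells, was at 0 in both libraries, and Ighm was at 421 and 459 CPM. Jchain, which joins antibody units, had 99.5% and 99.1% of its UMIs in the highest 1% of members (73.7 and 34.3 CPM).

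Concentration in a few cells set apart 6 of the 21 genes at least 2-fold higher, whose UMIs in suffix 2 lay to over 90% in the highest 1% of members: Igkc, Ighg1, Ighg2b, Iglc2, Prg2 and Car1. Prg2, an eosinophil granule protein, had 671 UMIs in suffix 2 of which 628 were in 1 cell, and Car1, the carbonic anhydrase of erythroid cells, had 633 UMIs of which 428 were in 1 cell. Summed over 7 genes, markers of basophils, mast cells and eosinophils were at 10.0 and 60.0 CPM, of which Prss34, Fcer1a and Gzmb were at 0 in suffix 1 and 0 genes were at 0 in suffix 2. With common tag limits the log2 ratios of Car1 and Igkc were 0.90 and 1.83 in place of 1.77 and 2.79, those of Ighg1 and Ighg2b 4.63 and 4.85 in place of 5.56 and 5.96, and that of Jchain -2.47 in place of -0.92. The direction of Jchain turned with the cells taken, to 0.99 without cells over 100 UMIs of the 4 MHC class II genes, 1.91 in members with a Flt3 UMI and 3.47 in those without a cycling UMI. For 14 of the 21 genes, among them the 4 MHC class II genes, Ctsg, Mpo, Mt1, Apoe, Plscr2 and Aldh1a1, the highest 1% of members held at most 50% in suffix 2. In suffix 1 they held more for 3 of the 14, at 61.6% of Cd74, 56.0% of Ctsg and 56.2% of Plscr2 UMIs. The 8 genes at least 2-fold lower were all spread in this way in suffix 1.

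Some genes known from old stem cells in other work were also higher in suffix 2, mostly from very low levels. This does not assign an age to either library. Plscr2, a phospholipid scramblase, went from 1.16 to 34.0 CPM, and was found, without thinning, in 2.02% of members in suffix 1 and 35.2% in suffix 2. Aldh1a1, a retinaldehyde dehydrogenase, was at 1.45 and 26.3 CPM (2.49% and 29.6% of members). None of the tag gates should lack these genes, so no background share stands beside these values and the part of free RNA was not tested. Mt1, a metal-binding metallothionein, was at 7.19 and 39.8 CPM, a ratio of 5.53 (4.49 to 6.87). Of 26 listed genes 9 were compared, of which 4 were at least 2-fold higher and 0 lower, with a median log2 ratio of 0.94. The 4 were Plscr2, Aldh1a1, Mt1 and Sult1a1. Each was under 10 CPM in suffix 1 and reached the mean of 10 CPM only through suffix 2. That filter thus has a part in the count and the median, and neither is read as a trait of the list. Fyb (65.5 and 58.8 CPM) and Alcam (40.1 and 34.9 CPM) were not higher. Clca3a1, the gene of the third surface tag, had 3 and 96 UMIs (0.22 and 3.88 CPM), and Wwtr1, which encodes TAZ, had 3 and 39 UMIs (0.22 and 1.57 CPM). Both were too low to compare. Alcam was named after its values had been seen.

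These levels moved with the tag limits as well. With common limits, Plscr2 was at 2.20 and 27.9 CPM and Mt1 at 7.61 and 33.0 CPM. Aldh1a1 had a log2 ratio of 0.99 in place of 1.67, Sult1a1, a sulfotransferase, 0.22 in place of 1.16, and Apoe, an apolipoprotein that was at 54.8 and 143 CPM with limits set in each suffix, had 0.31 in place of 1.24. The median log2 ratio of the list was 0.31 in place of 0.94. Slamf1, the transcript of the gated CD150, was at 0.29 and 1.90 CPM in the gate as defined and at 0.68 and 1.03 CPM with common limits, and its part in these results was not tested.

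Stem cell genes showed no common direction. Hlf, a transcription factor of stem and early progenitor cells, was at 302 CPM in suffix 1 and 144 CPM in suffix 2, a ratio of 0.48 (0.46 to 0.50). It was found in 78.4% and 59.2% of thinned members, and the part of free RNA in these shares was not tested. Esam, an adhesion molecule of stem cells, was at 16.3 and 31.3 CPM, and Ifitm1 at 704 and 1079 CPM. Meis1 was at 209 and 217 CPM and Mecom at 39.3 and 31.8 CPM, both named after their values had been seen. Of 9 compared genes 1 was at least 2-fold lower and 0 were higher, and the median log2 ratio was 0.09. With common limits Hlf was further apart, at 363 and 113 CPM, Esam had a log2 ratio of 0.01 in place of 0.65, and the list's median was -0.60.

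Of 22 listed erythroid and megakaryocyte genes 15 were compared. Apoe and Car1 were at least 2-fold higher, 0 were 2-fold lower, and the median log2 ratio was 0.34. Car1, Pf4, Cpa3 and Itga2b were under 10 CPM in suffix 1 and reached the mean of 10 CPM only through suffix 2. The filter thus has a part in this count and median, and neither is read as a trait of the list. Itga2b, the integrin of the megakaryocyte line, was at 9.73 and 27.5 CPM, and Cpa3, a protease of mast cells and their progenitors, at 5.88 and 21.0 CPM. Lmo2, a regulator of blood stem and erythroid cells, was at 860 and 701 CPM. With common tag limits the list's median was -0.07.

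The genes with the lowest ratios were diverse. Slc16a11, a monocarboxylate transporter (chr11:70212752-70216417), was at 43.7 CPM in suffix 1 and 2.58 CPM in suffix 2, a ratio of 0.06 (0.04 to 0.08). It was found in 24.1% (20.8 to 27.6) and 1.81% (1.12 to 2.75) of thinned members. The part of free RNA in these shares was not tested. Shisa8 was at 76.5 and 27.6 CPM, and Myl10, a myosin light chain, at 711 and 343 CPM. Lower-level genes outside the rule for naming also passed the 2-fold limit. They were Ddx4 (34.1 and 2.91 CPM), Thbs1 (20.8 and 1.25 CPM), AA467197 (30.4 and 5.41 CPM) and Wfdc18 (26.7 and 6.78 CPM). Pcp4l1, Rasa4, Gstp1, Cd69 and Il12a were each close to 2-fold lower, between log2 ratios of -0.92 and -0.78. The detox enzyme Gstp1 was at 49.1 and 22.8 CPM and the activation antigen Cd69 at 99.4 and 51.6 CPM.

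Immediate early genes, which respond within minutes to stimulation or to tissue handling, leaned lower in suffix 2. Egr1 was at 122 and 62.5 CPM, Fos at 264 and 158 CPM, Klf4 at 19.7 and 9.12 CPM, and Fosb at 181 and 119 CPM. Of 22 compared genes 0 passed 2-fold, 3 were at least 1.5-fold lower, 0 were higher, and the median log2 ratio was -0.32. Jun, the most abundant member, differed less, at 482 and 423 CPM. The labels give no time between dissection and capture, so handling cannot be told apart from the library.

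Cell cycle genes differed little with limits set in each suffix. Of 27 DNA replication genes, all lay between log2 ratios of -0.14 (Mcm4) and 0.16 (Tyms). The 26 G2 and mitosis genes lay between -0.33 and 0.07, with a median of -0.12. Mki67 was at 241 and 197 CPM and Top2a at 379 and 348 CPM. A UMI of Mki67, Top2a, Ube2c or Birc5 was found in 52.9% (48.9 to 56.9) and 52.3% (49.4 to 55.2) of thinned members. With common tag limits these shares were 48.9% (45.6 to 52.1) and 57.7% (54.4 to 60.9), with intervals for counting error over cells of 1 library each, and the median of the G2 and mitosis genes turned to 0.13. Cdkn2c, a CDK inhibitor, was the 1 of 13 compared G1 regulators past 1.5-fold with 10 CPM added, at 29.5 and 55.1 CPM. Cdk6, one of the kinases it binds, was at 372 and 536 CPM. Cdkn1a, another CDK inhibitor, was at 7.63 and 15.1 CPM, a ratio of 1.97 (1.59 to 2.48) with nothing added.

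Further lists held few genes past 2-fold. Of 35 interferon-stimulated genes 0 passed 2-fold, with a median log2 ratio of 0.13. Igtp and Gbp3, both interferon-inducible GTPases, were among those at least 1.5-fold higher, and 0 were 1.5-fold lower. Igtp was at 34.1 and 59.4 CPM. The 80 cytosolic ribosomal protein genes had a median of 0.02, the 22 MYC network genes -0.02, the 13 mitochondrially encoded genes 0.00 and the 8 compared Hippo pathway genes -0.12, each with 0 genes past 1.5-fold. Gapdh was the exception among 14 glycolytic enzymes on the higher side, at 410 and 642 CPM, and Ldhb, a lactate dehydrogenase chain, on the lower, at 102 and 64.8 CPM. Hspa1a, an inducible HSP70, was at 6.54 and 23.3 CPM, the 1 of 13 heat shock chaperones past 2-fold. Serpina3g, at 145 and 317 CPM, belongs to a family of near-identical genes between which reads may be split, so its level is uncertain.

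**Figure D4:**
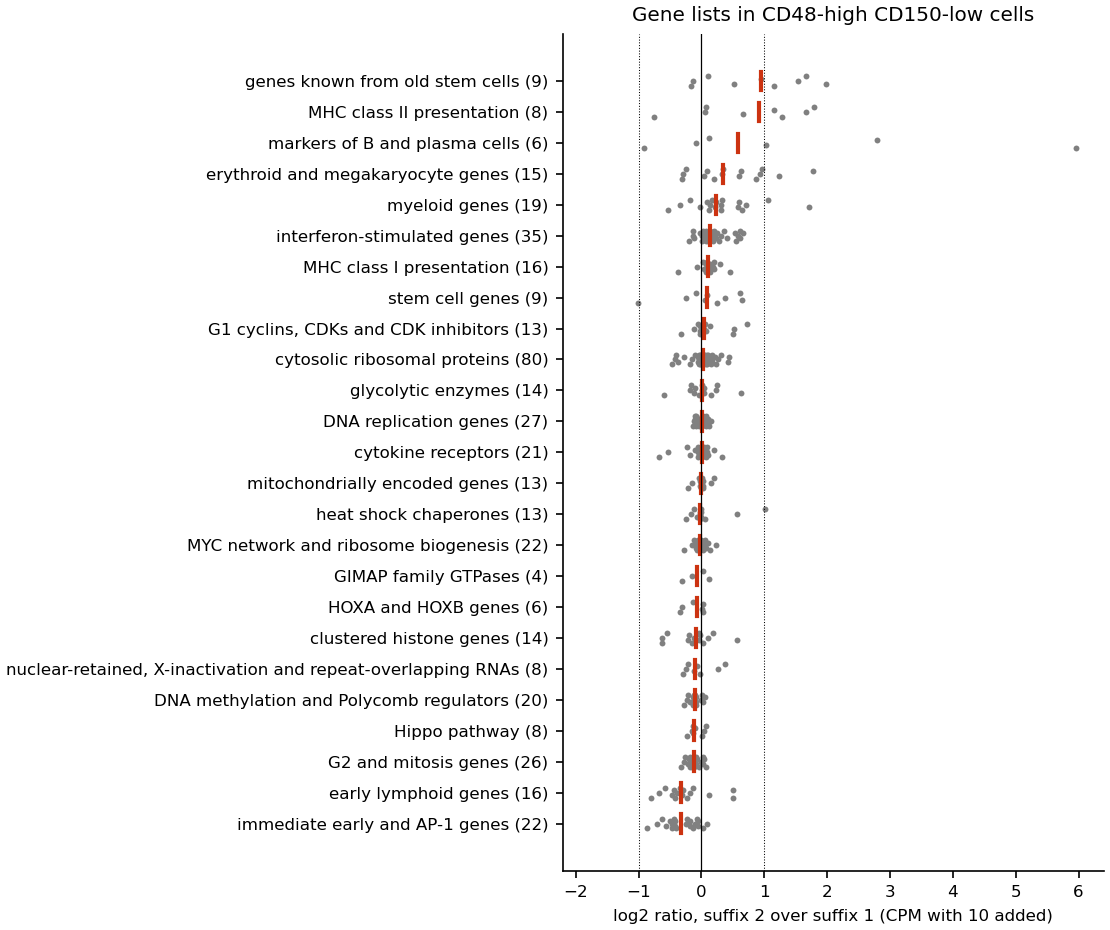
Log2 ratio of suffix 2 over suffix 1 (CPM with 10 added) for each compared gene of the lists with at least 4 compared members, given in parentheses, ordered by the list's median (red bar). MHC class II genes (median 0.91) and genes known from old stem cells (0.94) lie highest, early lymphoid and immediate early genes lowest (both -0.32). The median of 0.94 rests on 9 of 26 listed genes, of which 4 reached the mean of 10 CPM only through high levels in suffix 2. The dotted lines mark 2-fold.

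The same ratio was taken in the other tag gates of these libraries to see where the CD48-high CD150-low cells stood apart. Gate limits differ between suffixes there too, and the gates hold fewer cells. At least 2-fold higher and lower were 102 and 136 of 8572 compared genes in the CD48-low CD150-high gate (276 and 574 cells), 40 and 29 of 8535 in the CD48-low CD150-low gate (474 and 674 cells), and 72 and 26 of 8576 in the CD48-high CD150-high gate (105 and 50 cells). The CD48-high CD150-low cells thus had the fewest genes past 2-fold of the 4 gates, and they also had the most UMIs. Differences between gates are given as the log2 ratio of ratios, this gate over the other, with a counting interval.

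MHC class II separated this gate from the CD48-low CD150-high gate. H2-Aa was at 120 and 145 CPM there, and its log2 ratio of ratios was 1.53 (1.35 to 1.71). For H2-Eb1 this was 1.66 (1.44 to 1.89), for H2-Ab1 1.20 (1.02 to 1.38) and for Cd74 0.64 (0.52 to 0.77). In thinned cells of that gate a H2-Aa UMI was found in 46.7% and 42.1%, against 22.0% and 53.9% here. In suffix 1 these progenitors thus had the lower share, and in suffix 2 the higher. In the CD48-low CD150-low gate H2-Aa was at 94.6 and 308 CPM, a log2 ratio of ratios of 0.10 (-0.06 to 0.26), and for Cd74 this was -0.36 (-0.47 to -0.26), the difference being larger there. In the CD48-high CD150-high gate H2-Aa was at 44.5 and 87.5 CPM, a log2 ratio of ratios of 0.82 (0.44 to 1.21), and for Cd74 this was 0.18 (-0.13 to 0.50).

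Cell cycle genes separated these gates in another way. Top2a was at 183 and 21.2 CPM in the CD48-low CD150-high gate, a log2 ratio of ratios of 2.99 (2.75 to 3.23), and Mki67 at 117 and 11.4 CPM (3.07, 2.75 to 3.39). Ube2c, Cenpf and Pclaf, which serve mitosis or replication, were also among the 6 genes whose log2 ratios, with 10 CPM added, differed most between the gates among genes with a mean of at least 20 CPM in each. The sixth, Tmem158, ran in opposite directions, at 36.0 and 17.0 CPM here and at 39.1 and 136 CPM there. Egr1 was lower in suffix 2 here (122 and 62.5 CPM) and higher there (152 and 217 CPM), a log2 ratio of ratios of -1.48 (-1.64 to -1.31).

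Other differences were common to the gates. Mt1 was higher in suffix 2 in all 4 gates, and more so in the CD48-low CD150-high gate, at 18.4 and 203 CPM. Myl10, Shisa8 and Hlf were lower in suffix 2 in each gate, and for Myl10 the log2 ratio of ratios against the CD48-low CD150-high gate was 0.01 (-0.06 to 0.08). Dntt was near 0 in the CD48-low CD150-high gate (1.69 and 1.78 CPM) and was further apart in the CD48-low CD150-low gate, at 88.3 and 6.81 CPM.

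**Figure D5:**
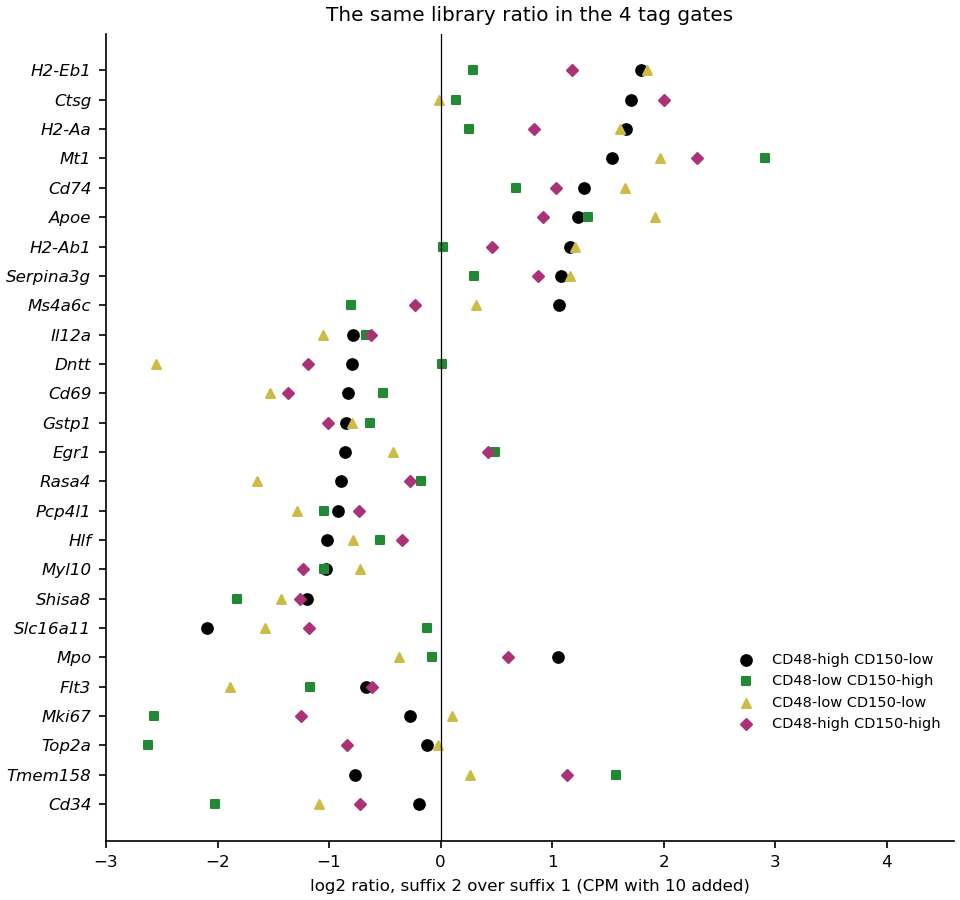
Log2 ratio of suffix 2 over suffix 1 (CPM with 10 added) in the CD48-high CD150-low gate (black circles) and the 3 other tag gates, for 20 leading genes and for Mpo, Flt3, Mki67, Top2a, Tmem158 and Cd34. H2-Aa is at 1.67 here and at 0.26 in the CD48-low CD150-high gate (green squares), while Mt1, Myl10 and Shisa8 keep their direction in all gates.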

How the data were processed

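Members and gene lists were chosen with earlier results of these data known. The authors counted UMIs with Cell Ranger 3.1.0 (builds mm10 and GRCm38 in the submitters' processing notes) and then put the libraries on one scale with its aggregation function (the mode is not given in the sources used here), so depths are those after that step. The deposited matrix holds these counts per gene and cell. Tag values were deposited by the authors on a log10 scale, made with CITE-seq-Count, and 10 to their power is a whole number for 100% of finite values. A tag count of 0 ranked lowest.

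Counts were summed per library over gated cells. With 1 library per side there was no test: genes were called by fold of CPM with 10 added, given a mean of at least 10 CPM. Ratios carry exact conditional binomial intervals, levels Poisson, shares Clopper-Pearson, medians order-statistic. Named were the 12 highest and 12 lowest ratios at a mean of at least 20 CPM, up to 4 members per list with the largest ratios and its most abundant member, 7 fixed genes, and the 6 whose log2 ratio differed most from that in the CD48-low CD150-high gate at a mean of at least 20 CPM in each. The script that takes the ratios was tested on simulated data, which checks the computation and not the calls. Scrublet (scanpy 1.11.5, expected rate 0.06) called 4 and 12 members as doublets, which were kept, as the methods name no removal. TMM came from edgeR 4.0.16. Positions are from GENCODE's GRCm38 annotation. PCR duplicates are collapsed by UMI. Not every gene that the rule named is described, and a result is not reported here.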

Additional observations from a re-analysis of the deposited data

Results flagged for a closer look

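3 named genes were at least 1.5-fold apart in opposite directions in the CD48-high CD150-low and the CD48-low CD150-high gates, a difference that was not tested, since each gate has 1 library per side. Ms4a6c, a membrane protein of the MS4A family, had log2 ratios of 1.06 and -0.80, a difference of 1.86. Nkg7, a granule membrane protein, had 0.65 and -1.36, a difference of 2.01. Tmem158 had -0.77 and 1.57, a difference of -2.34.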

How the results depend on the processing

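Counts of genes at least 2-fold higher and lower (21 and 8) were within 1.5 times of these under total, TMM and median-of-ratios scaling, the last 2 of which put the scale of suffix 2 over suffix 1 at -0.05 (log2) relative to total UMIs and moved the median log2 ratio from -0.04 to 0.0040 (TMM) and 0.0046. They depended on the number added to CPM (41 and 23 with 1, 7 and 0 with 50), on the minimum mean (11 and 3 at 50 CPM) and on the fold (63 and 37 at 1.5-fold, chosen after seeing the data). Lower genes numbered 13 with tag limits common to both suffixes, 15 with the stricter cell filter (69 and 96 cells), 29 in members without a Flt3 UMI and 21 in those without a cycling UMI (17 without cells high in MHC class II, also added after seeing the data). Without cells that had 3 or more stem cell genes (38 and 95 left) they were 43 and 40. Of 3124 values of the 142 named genes, 160 had the other sign (67 genes), 29 of them in 17 genes at least 1.5-fold apart, Jchain in 5, and 12 in 8 genes at least 2-fold apart. With stricter tags these 12 included Igkc (-0.50), Cd74 (-0.020), Iglc2 (-0.43) and Car1 (-0.0075, and -0.0070 without cells high in MHC class II). With the stricter cell filter there was Iglc2 (-0.11). Without cells with 3 or more stem cell genes they were Cd74 (-0.047) and Serpina3g (-0.023). In members without a Flt3 UMI they were Ctsg (-1.004), Ms4a6c (-0.33), Mpo (-1.19) and Iglc2 (-0.037); without the highest 3 cells of each library, added after seeing the data, Ctsg was at 2.22 and Mpo at 1.04, but this removes 3 of 49 cells against 3 of 287, picked on the gene itself, and no direction is read from it. The median of genes known from old stem cells was -0.13 at a mean of at least 50 CPM, where it is the value of 1 gene, Fyb, alone. Otherwise the cause was not tested. No paired analysis was possible because each side is 1 library.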
